A study of Mus musculus with 9 samples.

Results

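The genes described here are 5 subunit genes of AMP-activated protein kinase (AMPK), *Prkaa1*, *Prkab1*, *Prkab2*, *Prkag1* and *Prkag2*, and 5 genes for inhibitors of mTORC1, *Ddit4*, *Sesn1*, *Sesn2*, *Sesn3* and *Deptor*. They were chosen by name for these roles, with earlier results of these data known. All 10 were found among the 53077 genes of the deposited tables. RNA came from 5TGM1, a mouse multiple myeloma line, in 3 groups of 3 biological replicates. All groups carried Cas9 from a lentiviral vector, so the controls were Cas9-expressing cells too. The control gRNA targets *Rosa26*, a locus used as a neutral site. The *Slc2a1* gRNA targets the gene for the glucose transporter GLUT1. In the *Slc2a1/3/5/6/8* gRNA group a line was first edited at *Slc2a3*, *Slc2a5*, *Slc2a6* and *Slc2a8*, sorted on fluorescent reporters and expanded, and then received the *Slc2a1* gRNA. The cultures were transduced pools rather than clones, and by the study's description GLUT1-positive cells remained among those given the *Slc2a1* gRNA. An effect of the 4 additional gRNAs and an effect of sorting and expansion cannot be told apart in this design.

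AMPK is a kinase of a catalytic alpha, a scaffolding beta and a nucleotide-sensing gamma subunit, and it is switched on when ATP falls relative to AMP and ADP, as in glucose shortage. mTORC1 is a kinase complex that promotes protein synthesis and growth when amino acids, growth factors and energy are sufficient, and AMPK restrains it. Cells under stress add further brakes by transcription: *Ddit4* encodes REDD1, which releases the TSC complex to inhibit mTORC1, the sestrins act on the amino acid-sensing branch through GATOR2, and *Deptor* encodes a protein that binds mTOR directly. DEPTOR is best known in multiple myeloma, where it is abundant in a subset of tumours. AMPK itself is regulated mainly by nucleotides and phosphorylation, which RNA levels do not measure.

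In short, *Ddit4* was about 2-fold higher in both gRNA groups than in control cells, *Sesn2* was higher with the *Slc2a1/3/5/6/8* gRNAs than in control cells, and 0 of the 5 AMPK subunit genes passed edgeR's test in any comparison, where 4.64, 15.9 and 2.31% of all genes passed with the *Slc2a1* gRNA against control, the *Slc2a1/3/5/6/8* gRNAs against control and between the gRNA groups. At these shares 0 of 5 does not set the AMPK genes apart. *Deptor* was also called higher with the *Slc2a1/3/5/6/8* gRNAs, against control cells and against the *Slc2a1* gRNA, but both calls were lost without the replicate block, and the call against control also in 5 of the 9 fits that left out a sample. Levels are given below in TPM, transcript abundances divided by gene length and scaled to the same total in each sample, which lets genes be ranked. Changes between groups are given in CPM, counts scaled to a common library size by TMM, the quantity the test used. The test was edgeR's quasi-likelihood test with the replicate number as a block, fitted to 13834 genes in all 9 samples, and a gene was called at a Benjamini-Hochberg adjusted p under 0.05. A log2 fold change of 1 is a doubling. In these bulk samples fewer cells with a transcript and less of it per cell cannot be told apart.

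The starts of *Ddit4* and *Sesn2* are shown because they are the members that passed the test against control cells and have a promoter entry. The entries are those of RefSeq on GRCm38.p6, which covered 9 of the 10 genes; *Deptor* is named only. The bases printed run from 250 bases before the RefSeq start to the first base annotated as transcribed, read 5′ to 3′ on the gene's strand. *Ddit4* lies on the minus strand and its printed stretch is chr10:59951835-59952020; that of *Sesn2*, also on the minus strand, is chr4:132510502-132510706. Capitals mark ATTGG, the reverse complement of the CCAAT box.
*Ddit4*: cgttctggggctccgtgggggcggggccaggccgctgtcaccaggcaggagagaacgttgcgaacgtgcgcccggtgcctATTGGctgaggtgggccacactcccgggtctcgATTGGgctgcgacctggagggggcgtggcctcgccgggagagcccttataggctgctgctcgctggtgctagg
*Sesn2*: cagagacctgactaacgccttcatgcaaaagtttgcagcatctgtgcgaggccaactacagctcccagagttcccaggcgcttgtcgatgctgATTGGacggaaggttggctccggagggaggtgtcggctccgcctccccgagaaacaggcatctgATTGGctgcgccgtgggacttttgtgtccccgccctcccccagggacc

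Each of these stretches holds ATTGG at 2 places, which start 170 and 137 bases before the RefSeq start in *Ddit4* and 157 and 93 bases before it in *Sesn2*. The CCAAT box, CCAAT on either strand, was looked for after the sequences had been read, and 33.9% of the 32851 promoters of the table hold it in the same 250 bases, so it is a common motif. *Sesn1*, *Sesn3*, *Prkag1* and *Prkag2* hold it as well, which makes 6 of the 9 genes with an entry. The other motifs searched on both strands were TGATGCA, the core of the element bound by ATF4 with C/EBP factors (in 2.68% of promoters), TGTTTAC of FoxO factors (3.17%), the E-box CACGTG (6.02%) and the CRE core TGACGT (6.47%). No member's entry holds the ATF4, FoxO or E-box letters, and only that of *Prkag1* holds TGACGT, at 22 bases before its start. A match describes the letters alone, and no match says only that they are not in this window.

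Sequencing depth was 27166930 to 30537105 estimated counts in the controls, 21939343 to 24211199 with the *Slc2a1* gRNA and 21838805 to 27697301 with the *Slc2a1/3/5/6/8* gRNAs, so that every control was deeper than every *Slc2a1* gRNA sample. The part of depth in the results was not tested beyond the scaling alternatives. Mitochondrial genes took 4.84 to 11.1% of the counts, with the highest share in *Slc2a1/3/5/6/8* gRNA replicate 1. *Slc2a1* itself was at 59.5, 26.9 and 32.9 TPM in the controls, 37.1, 28.3 and 31.4 with the *Slc2a1* gRNA (log2 fold change -0.21, standard error 0.18, edgeR adjusted p = 0.544), and 24.1, 31.5 and 19.1 with the *Slc2a1/3/5/6/8* gRNAs (-0.66, standard error 0.18, adjusted p = 0.029, and 0.101 without the replicate block described below). That *Slc2a1* call was also lost with the effective length offset (0.0973), with limma (0.199 and 0.19), without control replicate 1 (0.222) or 3 (0.0934) and without *Slc2a1/3/5/6/8* gRNA replicate 1 (0.0767) or 3 (0.161), with log2 differences of -0.9 to -0.41 when a sample was left out. Small insertions and deletions need not lower a transcript, so these levels do not measure editing. The study reports significantly lower *Slc2a1* transcript in its deleted cultures, by a paired analysis of variance. That is a different test from edgeR, which called *Slc2a1* here only with the *Slc2a1/3/5/6/8* gRNAs. Of 7 plasma cell markers 6 reached 1 TPM in every library, whereas *Tnfrsf17* ranged from 0.0725 to 1.36 TPM. The summed level of 5 B cell markers lay between 0.233 and 0.552 TPM and that of 4 T cell markers between 0.0301 and 0.53 TPM. The 4 stromal markers summed to 0.278 to 1.47 TPM in the controls. With the *Slc2a1* gRNA their sum was 0.378 to 0.49 TPM, and with the *Slc2a1/3/5/6/8* gRNAs 0.178 to 0.222 TPM. Of these markers *Col1a2* and *Dcn* were at 0 in all 9 libraries, and *Col1a1* ranged from 0.178 to 1.45 TPM. The 5 myeloid markers summed to 57 to 97.5 TPM in the controls, 31.1 to 47.2 TPM with the *Slc2a1* gRNA and 33.3 to 44.2 TPM with the *Slc2a1/3/5/6/8* gRNAs, almost all of it *Cd68*. The lysozyme gene *Lyz2* stayed at or under 0.225 TPM. The part of *Cd68* in any result below was not tested. Replicates of a group differed by more than sampling noise, and p-values measure the spread between these samples.

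**Figure D1:**
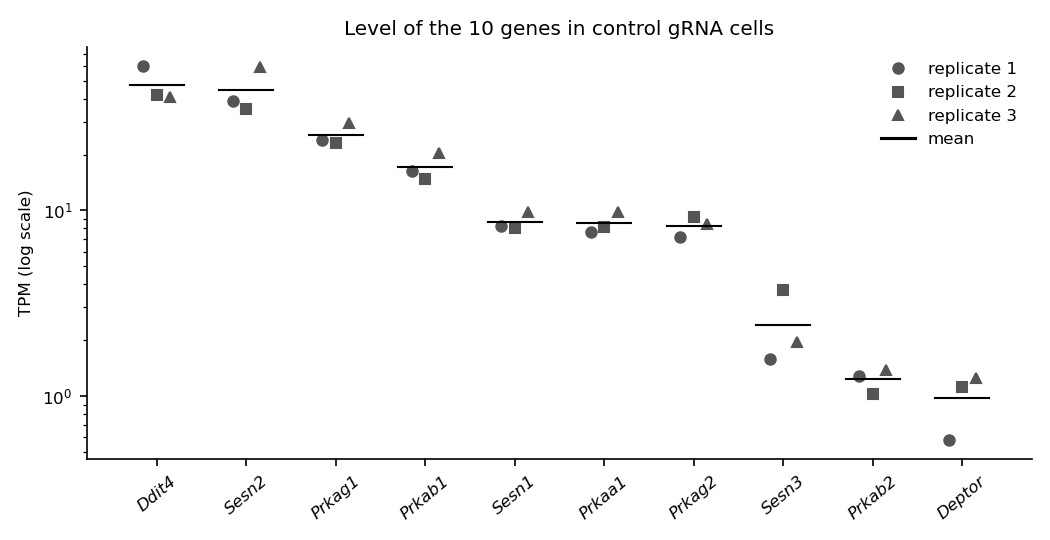
TPM of the 10 genes in the 3 control gRNA replicates (marker shapes) on a log axis, with a line at each gene's mean, ordered by that mean. *Ddit4* and *Sesn2* lie highest, with means of 47.7 and 44.6 TPM, and *Prkab2* and *Deptor* lowest, with means of 1.23 and 0.981 TPM.

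In control cells the inhibitors of mTORC1 spanned the whole range of the set. *Ddit4* had the highest mean, 47.7 ± 10.9 TPM (SD, n = 3), above 96.6% of all genes in the tables, and *Sesn2* followed at 44.6 ± 12.9 TPM. These neighbours in the order did not differ beyond their spread. *Prkag1*, for the gamma 1 subunit, was next at 25.5 ± 3.6 TPM and *Prkab1*, for beta 1, at 17.2 ± 2.85 TPM, and each had its lowest replicate above the highest of the gene below it. *Sesn1* at 8.68 ± 0.932, *Prkaa1*, for the alpha 1 catalytic subunit, at 8.55 ± 1.16 and *Prkag2*, for gamma 2, at 8.26 ± 1.02 TPM overlapped. *Sesn3* was at 2.41 ± 1.14 TPM. *Prkab2*, for beta 2, at 1.23 ± 0.187 TPM and *Deptor* at 0.981 ± 0.355 TPM overlapped at the bottom, as the plot of control levels shows. The order was the same with CPM per kilobase of effective length in place of TPM.

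The AMPK transcripts of these cells were those of 1 alpha gene and of 1 main beta and gamma gene. *Prkaa2*, for the alpha 2 subunit, had a count of 0 in all 9 samples, which at 3 counts per sample allows at most 0.0114 to 0.0158 TPM and covers counting error only. *Prkaa1* thus made up all alpha subunit transcripts detected. *Prkab1* made up 93.3 ± 0.517% (SD, n = 3) of beta subunit TPM in control cells, 92.6 ± 2.57% with the *Slc2a1* gRNA and 91.5 ± 1.28% with the *Slc2a1/3/5/6/8* gRNAs. *Prkag1* made up 75.4 ± 3.42%, 74.3 ± 2.05% and 72.1 ± 3.05% of gamma subunit TPM in the same order, and *Prkag2* nearly all of the rest, since *Prkag3*, for gamma 3, never exceeded 2 counts in a sample. The subunit shares of the groups therefore differed by no more than a few percentage points.

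Among the sestrins *Sesn2* predominated. It held 79.5 ± 4.23% (SD, n = 3) of summed sestrin TPM in control cells, 85 ± 1.68% with the *Slc2a1* gRNA and 87.5 ± 2.77% with the *Slc2a1/3/5/6/8* gRNAs. The share of *Sesn1* was 15.9 ± 1.89%, 11.2 ± 0.421% and 9.23 ± 1.25% in the same order, with every gRNA replicate below every control. The share of *Sesn3* was 4.61 ± 2.83%, 3.82 ± 1.85% and 3.3 ± 1.89%, within its spread in all groups.

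**Figure D2:**
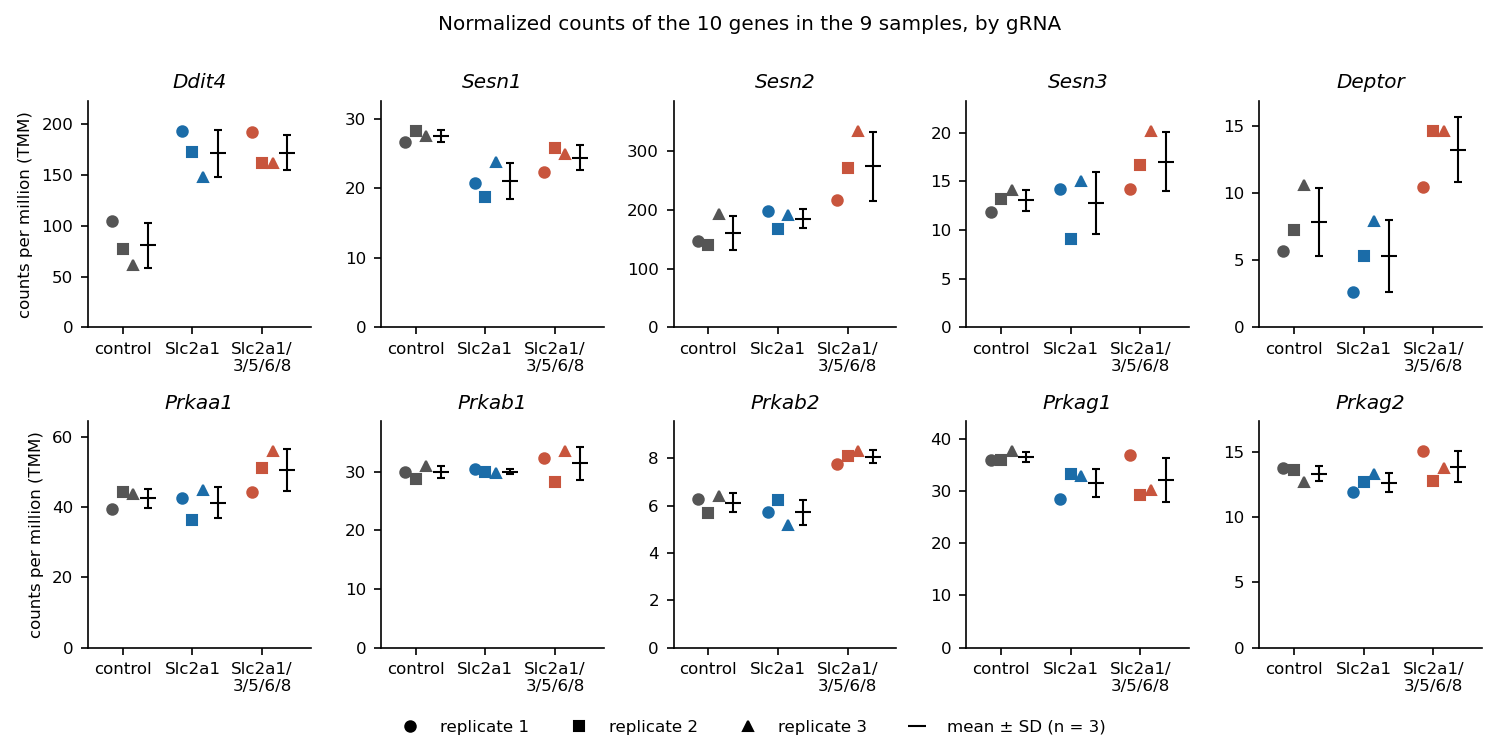
TMM-scaled CPM of the 10 genes in the 9 samples, by gRNA; marker shapes are replicates and the bar is the mean with the SD of 3. *Ddit4* lies between 61.1 and 105 in controls and between 148 and 194 in the other samples, and *Sesn2* between 217 and 336 with the *Slc2a1/3/5/6/8* gRNAs.

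*Ddit4* lay above control cells in both gRNA groups. It encodes REDD1, which is induced by hypoxia, energy stress, glucocorticoids and DNA damage. Its level was 105, 76.8 and 61.1 CPM in control replicates 1, 2 and 3, 194, 173 and 148 CPM with the *Slc2a1* gRNA, and 192, 162 and 162 CPM with the *Slc2a1/3/5/6/8* gRNAs. All 6 samples with a gRNA against *Slc2a1* thus lay above all 3 controls, and the gRNA groups overlapped each other. In TPM the levels were 60.3, 42.1 and 40.8 in controls, 103, 85.3 and 86.1 with the *Slc2a1* gRNA, and 89.1, 101 and 105 with the *Slc2a1/3/5/6/8* gRNAs, which gave the same separation.

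Relative to control cells *Ddit4* rose 2.15-fold with the *Slc2a1* gRNA (log2 fold change 1.11, standard error 0.12, edgeR adjusted p = 0.0033). The 95% interval of the fold was 1.8 to 2.58, and the same-numbered pairs gave log2 differences of 0.89, 1.17 and 1.28. By p-value it ranked 2 of 13834 genes in this comparison. In the *Slc2a1/3/5/6/8* gRNA samples it rose 2.17-fold (log2 fold change 1.12, standard error 0.12, adjusted p = 0.000204; interval 1.81 to 2.6), where it ranked 40. These comparisons share the control samples. The direct comparison of the gRNA groups gave a log2 difference of 0.01 (standard error 0.12, adjusted p = 0.974), with an interval of the fold from 0.843 to 1.2. *Ddit4* kept its call against control in all 9 fits that left out a sample, for both gRNA groups. With limma on log2(TPM + 1) its adjusted p was 0.0598 for the *Slc2a1* gRNA.

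The *Ddit4* gene lies at chr10:59949669-59951834 on the minus strand of GRCm38 in GENCODE M21, with 1 annotated transcript of 1755 bases. In that annotation it has no exonic overlap with a neighbour and shares no 31-base word with another gene's transcripts. The annotation behind the deposited counts is not given, and the estimated counts of *Ddit4* were not whole (2996.65, 2109.01 and 1995.22 in the controls). Whether some of its reads were shared with another target was not tested.

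*Sesn2* was highest in the *Slc2a1/3/5/6/8* gRNA samples. It encodes sestrin 2, a leucine-binding inhibitor of GATOR2 that is induced by p53 and by ATF4. Its level was 148, 141 and 194 CPM in control replicates 1, 2 and 3, 198, 167 and 192 CPM with the *Slc2a1* gRNA, and 217, 271 and 336 CPM with the *Slc2a1/3/5/6/8* gRNAs. In CPM the last group lay above all 6 other samples, and the *Slc2a1* gRNA samples overlapped the controls. In TPM, at 39.1, 35.3 and 59.4, then 48.3, 37.9 and 51.1, then 46.2, 77.6 and 100, all groups overlapped, because replicate 1 of the last group lay within the range of the others. *Sesn2* rose 1.71-fold with the *Slc2a1/3/5/6/8* gRNAs relative to control (log2 fold change 0.77, standard error 0.13, edgeR adjusted p = 0.00339; interval of the fold 1.4 to 2.09), with pair differences of 0.55, 0.95 and 0.79. This call held in all 9 fits that left out a sample and was lost with limma on log2(TPM + 1) (adjusted p = 0.0968) and on log2(TPM + 0.1) (0.0887).

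With the *Slc2a1* gRNA alone *Sesn2* had a log2 difference from control of 0.22 (standard error 0.13, edgeR adjusted p = 0.352), and the interval of the fold ran from 0.956 to 1.43. The direct comparison of the gRNA groups gave a *Sesn2* log2 difference of 0.55 (standard error 0.13), which just missed the threshold at an adjusted p of 0.0552. That difference passed with DESeq2 (adjusted p = 0.00309), with no filter on low counts (0.00104), with at least 10 counts in every sample (0.0419), without *Slc2a1* gRNA replicate 1 (0.0276) and without *Slc2a1/3/5/6/8* gRNA replicate 1 (0.00976). It did not pass in the 7 other fits that left out a sample (adjusted p up to 0.272, log2 difference down to 0.43), without the replicate block (0.124), with total count scaling (0.0592), with the effective length offset (0.0995), in a fit of only these groups (0.178) or with limma (0.288 and 0.272). In CPM the lowest *Sesn2* level of the *Slc2a1/3/5/6/8* group was in replicate 1, as were those of *Sesn1*, *Sesn3*, *Deptor*, *Prkaa1* and *Prkab2*, whereas *Ddit4*, *Prkag1* and *Prkag2* were highest there. In TPM that replicate was the lowest of the group for all members except *Prkag2* and *Sesn3*, so the order of *Ddit4* and *Prkag1* turned over. This sample had the highest mitochondrial share of the 9 samples at 11.1%, against 5.84 and 4.91% in replicates 2 and 3. Removal of the mitochondrial genes before normalization, an alternative chosen after the data were seen, gave *Sesn2* an adjusted p of 0.0537 in this comparison and 0.00321 against control. *Sesn2* lies at chr4:132492032-132510501 on the minus strand, with 1 annotated transcript of 3475 bases that shares no 31-base word with another gene.

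*Sesn1* was below the controls in every gRNA sample, without passing the test. It encodes sestrin 1, a p53-induced member of the family. Its level was 26.7, 28.3 and 27.6 CPM in controls, 20.7, 18.7 and 23.8 CPM with the *Slc2a1* gRNA and 22.4, 25.9 and 25 CPM with the *Slc2a1/3/5/6/8* gRNAs. The log2 difference from control was -0.39 (standard error 0.12, edgeR adjusted p = 0.0838) with the *Slc2a1* gRNA, with an interval of the fold from 0.639 to 0.915. It was -0.18 (standard error 0.12, adjusted p = 0.339) with the *Slc2a1/3/5/6/8* gRNAs. A fit of only the *Slc2a1* gRNA and control samples gave *Sesn1* an adjusted p of 0.0291. *Sesn1* and *Sesn2*, which encode proteins of like function, had fitted differences from control of opposite sign. Of these differences only that of *Sesn2* with the *Slc2a1/3/5/6/8* gRNAs passed the test. With the *Slc2a1* gRNA both genes were below control in the pair numbered 3 (-0.213 and -0.017). The contrast between the genes was not tested.

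*Sesn3*, a sestrin gene activated by FoxO factors, was variable. It had 11.8, 13.2 and 14.1 CPM in controls, 14.2, 9.12 and 15 CPM with the *Slc2a1* gRNA and 14.2, 16.7 and 20.2 CPM with the *Slc2a1/3/5/6/8* gRNAs. Its log2 differences from control were -0.04 (standard error 0.17, edgeR adjusted p = 0.917) and 0.38 (standard error 0.17, adjusted p = 0.147). TPM gave another picture of its spread, with 1.58, 3.7 and 1.95 in controls, because the length assigned to *Sesn3* ranged from 3144 to 9125 bases between samples. GENCODE M21 lists 7 transcripts of this gene, of 505 to 9125 bases, so its TPM depends on which of them Salmon assigned the reads to.

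*Deptor* was scarce, and its spread within groups was wide. It had 163, 199 and 347 estimated counts in the controls, 54, 117 and 194 with the *Slc2a1* gRNA and 239, 331 and 412 with the *Slc2a1/3/5/6/8* gRNAs. In CPM these were 5.69, 7.25 and 10.6, then 2.6, 5.34 and 7.95, then 10.4, 14.7 and 14.6. The *Slc2a1/3/5/6/8* gRNA samples lay above all *Slc2a1* gRNA samples, while each gRNA group overlapped the controls. Within each number the order was the same, with the *Slc2a1* gRNA lowest and the *Slc2a1/3/5/6/8* gRNAs highest.

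*Deptor* rose 2.65-fold with the *Slc2a1/3/5/6/8* gRNAs relative to the *Slc2a1* gRNA (log2 fold change 1.41, standard error 0.21, edgeR adjusted p = 0.00572; interval of the fold 1.94 to 3.63), with pair differences of 2.01, 1.46 and 0.88. It ranked 42 by p-value in that comparison. Without the replicate block the adjusted p was 0.0859, and without *Slc2a1* gRNA replicate 2 it was 0.0522. Limma on log2(TPM + 1) and log2(TPM + 0.1) did not call it either (adjusted p = 0.0749 and 0.123). The same-numbered samples of these 2 groups did not deviate together (correlations of -0.107 to -0.034). Relative to control *Deptor* rose 1.73-fold with the *Slc2a1/3/5/6/8* gRNAs (log2 fold change 0.79, standard error 0.2, adjusted p = 0.0208; interval 1.28 to 2.34). This smaller change did not pass without the replicate block (adjusted p = 0.134), with effective length as an offset (0.117), with limma on log2(TPM + 1) or log2(TPM + 0.1) (0.21 and 0.356, at log2 differences of 0.3 and 0.53), without control replicate 1, 2 or 3 (0.0646, 0.109 and 0.0805), or without *Slc2a1/3/5/6/8* gRNA replicate 1 or 2 (0.06 and 0.0727). With the *Slc2a1* gRNA *Deptor* had a log2 difference from control of -0.62 (standard error 0.21, adjusted p = 0.107; interval of the fold 0.476 to 0.891). That difference passed with no filter on low counts (0.0308) and in a fit of only these groups (0.0422). In GENCODE M21 *Deptor* lies at chr15:55112317-55259271 on the plus strand, and 6.03% of its 31-base words also occur in transcripts of other genes (3.09% in the antisense gene *Gm9920*). *Gm9920* had 0 to 10.3 estimated counts per sample.

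**Figure D3:**
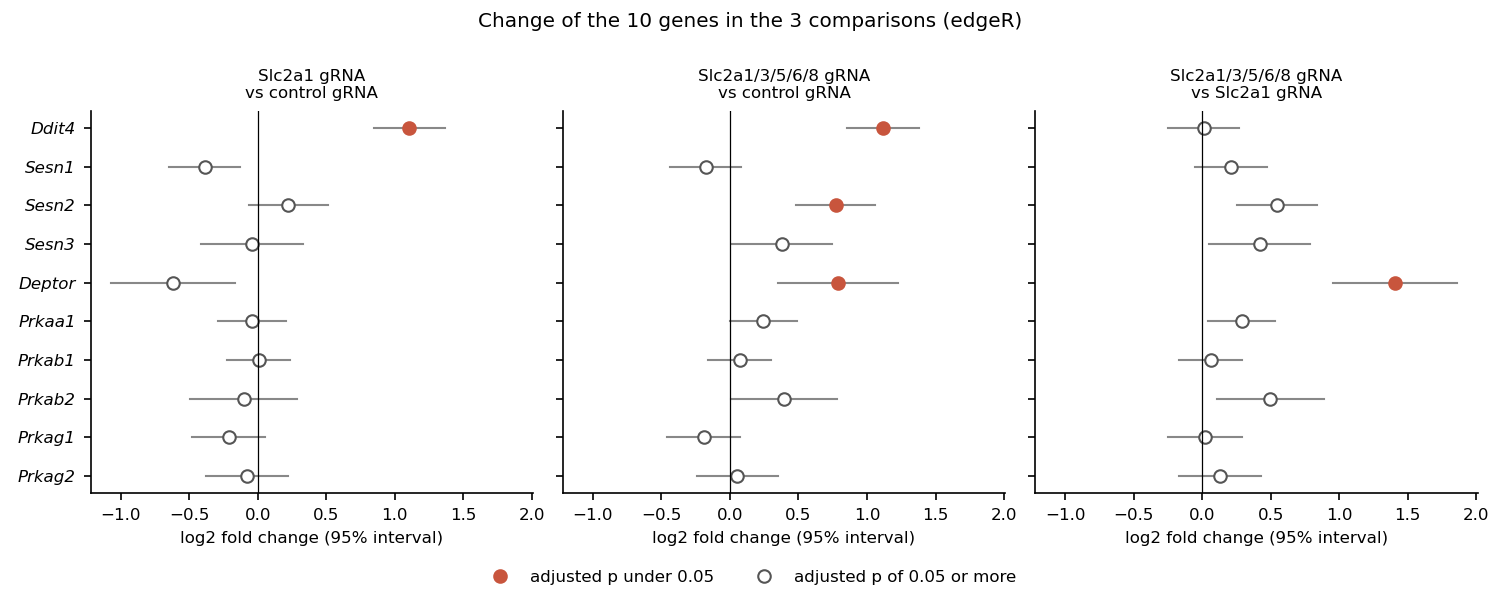
Log2 fold changes of the 10 genes in the 3 comparisons, with 95% intervals from edgeR's quasi-likelihood fit; filled points passed an adjusted p under 0.05. *Ddit4* is filled in both comparisons with control (1.11 and 1.12), *Sesn2* in 1 (0.77), and *Deptor* with the *Slc2a1/3/5/6/8* gRNAs against control (0.79) and against the *Slc2a1* gRNA (1.41).

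The catalytic subunit gene *Prkaa1* had 39.6, 44.3 and 43.8 CPM in controls, 42.6, 36.4 and 45 CPM with the *Slc2a1* gRNA, and 44.3, 51.2 and 56.2 CPM with the *Slc2a1/3/5/6/8* gRNAs. All groups overlapped. Its log2 differences were -0.04 (standard error 0.11, edgeR adjusted p = 0.865) and 0.24 (standard error 0.11, adjusted p = 0.161) from control, and 0.29 (standard error 0.11, adjusted p = 0.191) between the gRNA groups. The interval of the fold against control began at 0.818 with the *Slc2a1* gRNA and ended at 1.4 in the larger set of gRNAs.

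The beta subunit genes differed in their spread. *Prkab1*, the main one, was the steadiest member, with 28.8 to 30.9 CPM in controls, 29.8 to 30.4 CPM with the *Slc2a1* gRNA and 28.3 to 33.6 CPM with the *Slc2a1/3/5/6/8* gRNAs. Its fold against control had intervals from 0.858 to 1.18 and from 0.897 to 1.23. *Prkab2* had 6.29, 5.68 and 6.43 CPM in controls, 5.72, 6.25 and 5.2 CPM with the *Slc2a1* gRNA and 7.77, 8.11 and 8.33 CPM with the *Slc2a1/3/5/6/8* gRNAs. Its 3 samples of the last group lay above the 6 others, but with log2 differences of 0.4 from control (standard error 0.18, edgeR adjusted p = 0.15) and 0.5 from the *Slc2a1* gRNA (standard error 0.18, adjusted p = 0.156) it did not pass. *Prkab2* rested on 119 to 235 estimated counts per sample.

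The gamma subunit genes did not pass either. *Prkag1* had 36, 36 and 37.8 CPM in controls, 28.5, 33.4 and 32.9 CPM with the *Slc2a1* gRNA and 37, 29.2 and 30.3 CPM with the *Slc2a1/3/5/6/8* gRNAs. Its log2 differences from control were -0.21 (standard error 0.12, edgeR adjusted p = 0.343) and -0.19 (standard error 0.12, adjusted p = 0.317). Of its exonic bases in GENCODE M21, 43.7% overlap exons of *B130046B21Rik* on the other strand, and 35% of its 31-base words occur in transcripts of that gene. The sources used here do not state that strand was kept, so reads of these overlapping genes cannot be told apart. *B130046B21Rik* was given 31 to 48.8 estimated counts in control samples and 10 to 19.1 in the 6 others, against 592 to 1235 for *Prkag1*, and its part in the *Prkag1* values was not tested. *Prkag2* ranged from 11.9 to 15.1 CPM over the 9 samples, with log2 differences from control of -0.08 (standard error 0.14, adjusted p = 0.796) and 0.05 (standard error 0.14, adjusted p = 0.82), and 14.5% of its exonic bases overlap antisense genes.

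Counted together, 1 of the 10 members was called with the *Slc2a1* gRNA against control, higher, beside 4.64% of all genes tested (2.25% called higher), and 3 members had an unadjusted p under 0.05, beside 22% of all genes. In the comparison of the *Slc2a1/3/5/6/8* gRNAs with control 3 members were called, all higher, beside 15.9% of all genes (8.49% higher), and 5 had an unadjusted p under 0.05, beside 31.4%. Between the gRNA groups 1 member was called, higher with the *Slc2a1/3/5/6/8* gRNAs, beside 2.31% of all genes (1.36% higher), and 5 had an unadjusted p under 0.05, beside 19.1%. The median log2 fold change of the members was -0.06, 0.31 and 0.25 in these comparisons, beside medians over all genes of -0.0013, 0.0072 and 0.0034. The called members were all among the mTORC1 inhibitors, at 1, 3 and 1 of 5, while 0 of the 5 AMPK subunit genes was called by edgeR, with 0, 1 and 2 of them at an unadjusted p under 0.05 (22, 31.4 and 19.1% of all genes in the same order) and 0 called by DESeq2.

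By range alone, CPM did not overlap between the *Slc2a1* gRNA and control samples for 3 members, beside 26.2% of all genes tested: *Ddit4* above, and *Sesn1* and *Prkag1* below. For the *Slc2a1/3/5/6/8* gRNAs the range was apart from control for 5 members, beside 34.2% of all genes: *Ddit4*, *Sesn2*, *Sesn3* and *Prkab2* above, and *Sesn1* below. Between the gRNA groups it was apart for *Sesn2*, *Deptor* and *Prkab2*, all above with the *Slc2a1/3/5/6/8* gRNAs, beside 20.9% of all genes. In TPM the ranges of *Sesn2*, *Sesn3*, *Prkab2* and *Sesn1* overlapped between the *Slc2a1/3/5/6/8* gRNAs and control, and those of *Sesn2* and *Prkab2* between the gRNA groups. *Prkag1*, which overlapped control in CPM with the *Slc2a1/3/5/6/8* gRNAs, was below it in TPM (19.6 to 21.7 against 23 to 29.6). A non-overlap of 3 against 3 samples was thus frequent in these data, and most members that showed one did not pass the test.

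The deposited length of a gene is a mean over its transcripts weighted by their abundance, so it moves with the mix of isoforms. It was the same in all 9 samples for *Ddit4* (1755 bases) and *Sesn2* (3475 bases). For the 8 other members a limma fit of log2 length over 10782 genes called 0 in each of the 3 comparisons, and 0 had an unadjusted p under 0.05; over all genes it called 0, 0.0649 and 0.0556%. As a ratio of longest to shortest length, the largest spread was that of *Sesn3*, followed by *Prkab2* (2857 to 5006 bases) and *Deptor* (5502 to 8547 bases).

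The genes whose CPM pattern over the 9 samples was most like that of *Ddit4*, out of 13833 compared, were *Bnip3l* (Pearson r = 0.98), for a mitophagy receptor, *Smox* (0.974), for spermine oxidase, and *Tmem238* (0.972). For *Sesn2* they were *Lancl2* (0.989), *Naa25* (0.984), for a subunit of an N-terminal acetyltransferase, and *Slc30a1* (0.982), for a zinc exporter. These values describe 9 samples that share 3 groups and their depths.

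**Figure D4:**
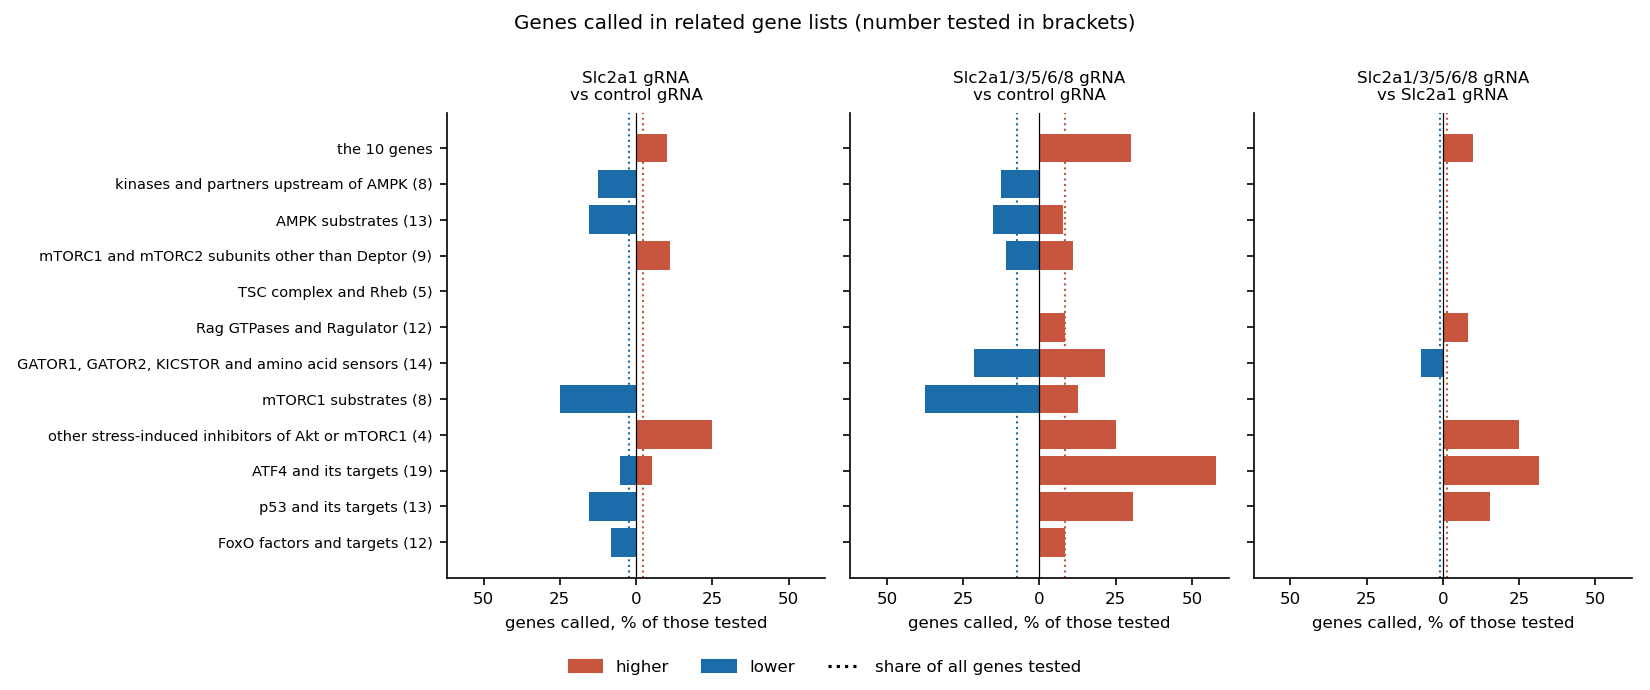
Share of the tested genes of each list called higher (right of 0) and lower (left of 0) in the 3 comparisons, with dotted lines at the shares over all genes tested (2.25 and 2.39%, 8.49 and 7.44%, 1.36 and 0.947%). With the *Slc2a1/3/5/6/8* gRNAs against control, 11 of 19 ATF4 genes are called higher and 0 lower, while the lists around AMPK and mTORC1 hold calls in both directions or few calls.

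The other genes of the pathway are described by the lists they belong to, with log2 fold changes in parentheses. The counts of each list stand beside 4.64% of all genes called with the *Slc2a1* gRNA against control. They stand beside 15.9% with the *Slc2a1/3/5/6/8* gRNAs against control and 2.31% between the gRNA groups. The list genes named had edgeR adjusted p-values of 0.00018 to 0.0485, and *Ulk1* and *Trib3* each count in more than 1 list. Of 8 kinases and partners upstream of AMPK 1 was called in each comparison with control, *Stradb*, for a pseudokinase that activates LKB1, which fell by 0.85 and 0.69 on the log2 scale. Of 13 AMPK substrates tested, 2 fell with the *Slc2a1* gRNA, among them *Ulk1*, for the kinase that starts autophagy (-0.45). In the *Slc2a1/3/5/6/8* gRNA samples 2 fell relative to control, among them *Ulk1* (-0.38), and *Pfkfb3*, for an activator of glycolysis, rose (0.93). Among 9 subunits of the mTOR complexes other than *Deptor*, *Prr5* rose with the *Slc2a1* gRNA (0.53), and with the *Slc2a1/3/5/6/8* gRNAs *Mlst8* rose (0.44) and *Rictor* fell (-0.36). None of the 5 genes of the TSC complex and Rheb, on which REDD1 acts, was called in any comparison by edgeR. Of these 5 genes 0, 2 and 0 had an unadjusted p under 0.05, beside 22, 31.4 and 19.1% of all genes. At the shares over all genes, 0 of 5 called does not set this list apart.

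In the amino acid branch, on which the sestrins act, 1 of 12 Rag and Ragulator genes was called, *Rraga*, which rose with the *Slc2a1/3/5/6/8* gRNAs relative to control (0.64) and to the *Slc2a1* gRNA (0.5). Of 14 GATOR, KICSTOR and sensor genes 0 was called with the *Slc2a1* gRNA by edgeR, beside 4.64% of all genes. An unadjusted p under 0.05 was found for 4 of them, beside 22% of all genes. With the *Slc2a1/3/5/6/8* gRNAs against control 3 rose and 3 fell, among them the GATOR2 subunit gene *Sec13* (-0.8) and *Itfg2* of KICSTOR (0.65), and *Sec13* also fell relative to the *Slc2a1* gRNA (-0.54). Of 8 mTORC1 substrates tested 2 fell with the *Slc2a1* gRNA, *Lpin1* (-0.85) and *Ulk1*. Relative to control 3 fell with the *Slc2a1/3/5/6/8* gRNAs, among them *Lpin1* (-1.13) and the S6 kinase gene *Rps6kb2* (-0.67), and *Eif4ebp1*, for the translation repressor 4E-BP1, rose (0.41). Of 4 other stress-induced inhibitors of Akt or mTORC1, *Bnip3* rose with the *Slc2a1* gRNA (1.45) and *Trib3* with the *Slc2a1/3/5/6/8* gRNAs, relative to control (0.86) and to the *Slc2a1* gRNA (0.66).

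Of 19 genes of ATF4 and its targets 1 rose and 1 fell with the *Slc2a1* gRNA: *Atf5* (0.93) and *Ddit3* (-0.75), for the stress factor CHOP. Relative to control 11 rose with the *Slc2a1/3/5/6/8* gRNAs and 0 fell, with *Nupr1* (0.97), *Trib3* (0.86) and *Cebpg* (0.86) at the smallest adjusted p, and 6 rose relative to the *Slc2a1* gRNA, led by *Ddit3* (1.58), *Nupr1* (0.82) and *Trib3*. The list's median log2 fold change was 0.14, 0.47 and 0.37 in the 3 comparisons. Of 13 p53 genes tested 2 fell with the *Slc2a1* gRNA, *Mdm2* (-0.48) and *Fas* (-0.89), and 4 rose with the *Slc2a1/3/5/6/8* gRNAs relative to control, among them *Bbc3* (0.65), *Aen* (0.66) and *Trp53* itself (0.53), and 2 relative to the *Slc2a1* gRNA, *Trp53inp1* (0.63) and *Bbc3* (0.53). Of 12 FoxO genes tested 1 fell with the *Slc2a1* gRNA, *Txnip* (-2.11), whose product limits glucose uptake and whose transcription follows glucose supply, and 1 rose with the *Slc2a1/3/5/6/8* gRNAs, *Cited2* (0.42).

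Over all lists 11, 32 and 10 genes were called in the 3 comparisons, and leaving out 1 sample gave 0 to 17, 14 to 37 and 2 to 13. The lowest counts came without control replicate 2 or *Slc2a1* gRNA replicate 2 in the first comparison, without control replicate 1 in the second and without *Slc2a1* gRNA replicate 2 in the third. Of the 11 list genes chosen by the naming rule with the *Slc2a1* gRNA, 0 kept its call in all 9 such fits. In the comparison of the *Slc2a1/3/5/6/8* gRNAs with control 10 of the 20 kept theirs, among them *Rraga*, *Sec13*, *Itfg2*, *Lpin1*, *Rps6kb2*, *Trib3*, *Nupr1*, *Cebpg* and *Bbc3*. Against the *Slc2a1* gRNA *Ddit3* and *Nupr1* kept theirs. These fits also have fewer samples, and DESeq2 called 17 list genes in the first and in the third comparison.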

How the data were processed

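RNA was sequenced from 3 groups of 5TGM1-Cas9 cells with 3 replicates each, grouped by the labels. The authors made cDNA with oligo-dT primers, mapped paired reads with Salmon (1.5.1 per the submitters' processing notes) and deposited gene tables of estimated counts, TPM, length and effective length. The annotation and Salmon settings are not given in the sources used here. Of the estimated counts above 0 deposited, 47.7% were not whole, and they were rounded.

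Counts were tested with edgeR 4.0.16 in R 4.3.3 (quasi-likelihood, TMM, default low-count filter, all 9 samples, replicate number as a block, because the study states a paired test for transcript levels). Between control and *Slc2a1* gRNA samples the deviations of same-numbered samples correlated at 0.111 to 0.215. They correlated at -0.065 to 0.162 between control and *Slc2a1/3/5/6/8* gRNA samples and at -0.107 to -0.034 between the gRNA groups, where 0 of 3 samples correlated best with its own number. Standard errors come from the F statistic. The script was tested on simulated data. Alternatives were DESeq2 1.42.0, limma 3.58.1 with a mean-variance trend on log2(TPM + 1) and log2(TPM + 0.1), no block, total count scaling, other filters, an effective length offset, only the groups compared, leaving out each sample and, added later, removal of mitochondrial genes. Log2 length was tested with limma. The deposited lengths, effective lengths and TPM served no other test. Positions, overlaps and 31-base words come from GENCODE M21 (GRCm38).

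The members and lists were chosen with earlier results of these data known. All members are named; from each list up to 3 called genes with the smallest adjusted p; and the 3 genes most like each of the 2 members with the smallest adjusted p in the comparison of *Slc2a1/3/5/6/8* gRNAs with control. Some genes that this rule selects are not reported here.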

Additional observations from a re-analysis of the deposited data

How the results depend on the processing

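*Ddit4* kept its direction against control in every alternative, and its call in all but limma on log2(TPM + 1) for the *Slc2a1* gRNA. *Deptor* had the fewest counts of the called members, with 54 to 412 estimated counts per sample. In limma the median of all genes against control moved to -0.11 and -0.16 with the *Slc2a1* gRNA at pseudocounts of 1 and 0.1, so its changes are relative to that shift. Total count scaling moved the higher share of called genes from 48.4, 53.3 and 58.9% to 23.9, 41.9 and 69.5%. The cause of a lost or gained call was not tested.

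Counts follow for *Slc2a1* gRNA against control, *Slc2a1/3/5/6/8* gRNAs against control and the gRNA groups, in this order. Without the replicate block 1, 2 and 0 members, 8, 28 and 6 list genes and 534, 1885 and 129 genes were called, beside 1, 3 and 1, 11, 32 and 10, and 642, 2204 and 319 with it; among members only the *Deptor* calls were lost. With DESeq2 the gRNA groups gave 2 members, 17 list genes and 758 genes, and *Slc2a1* gRNA against control 17 and 1255 list and all genes. No filter on low counts gave 2 members, 17 and 1448 with the *Slc2a1* gRNA against control and 2, 19 and 974 between the gRNA groups, where at least 10 counts gave 2 members. The effective length offset called 165, 1323 and 95 genes, with 3 and 6 list genes in the comparisons with the *Slc2a1* gRNA. Limma called 0, 433 and 31 genes at a pseudocount of 1 and 52, 462 and 32 at 0.1, with 0, 7 and 2 and then 2, 8 and 2 list genes, and 0, 1 and 0 members at 1 and 1, 1 and 0 at 0.1. Only the 2 groups compared gave 3 members, 30 list genes and 2268 genes with the *Slc2a1* gRNA against control and 3 list genes and 116 genes between the gRNA groups.

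Leaving out 1 sample gave 1 to 1, 2 to 3 and 0 to 2 members, 0 to 17, 14 to 37 and 2 to 13 list genes, and 11 to 1291, 631 to 2559 and 42 to 383 genes. The lowest counts over all genes came without control replicate 2, control replicate 1 and *Slc2a1* gRNA replicate 2. Changes of sign were limited to differences that passed in neither fit. Without 1 sample, the log2 difference from control with the *Slc2a1* gRNA ranged from -0.14 to 0.062 for *Prkaa1*, -0.042 to 0.049 for *Prkab1*, -0.14 to 0.0052 for *Prkag2*, -0.23 to 0.17 for *Sesn3* and -0.41 to 0.042 for *Slc2a1*. It ranged from -0.021 to 0.13 for *Prkag2* with the *Slc2a1/3/5/6/8* gRNAs, and between the gRNA groups from -0.13 to 0.11 for *Prkag1* and from -0.086 to 0.073 for *Ddit4*. The signs of *Prkab1* (-0.087 with total counts, -0.15 and -0.15 in limma) and *Prkab2* (0.12 with the length offset) turned with the *Slc2a1* gRNA. Those of *Prkab1* (-0.044 and -0.046) and *Prkag2* (-0.019 and -0.022) turned in limma with the *Slc2a1/3/5/6/8* gRNAs, and that of *Ddit4* between the gRNA groups (-0.00083 with at least 10 counts, -0.0040 with only these groups).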
